A study of Rattus norvegicus with 32 samples.

Results

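The genes described here are 32 genes of sterol and fatty acid synthesis, measured by RNA-seq in the hippocampus of rat pups after iron deficiency before and after birth, with and without insulin given through the nose. They were found by gene symbol in a table of 32883 genes, and all 32 were present and passed the filter on low counts that left 15439 genes for testing. By role, 7 act in the mevalonate pathway, 11 convert farnesyl diphosphate to cholesterol by way of squalene, 6 are SREBP regulators or targets and 8 make, activate or desaturate fatty acids.

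The study holds 32 libraries of total RNA, each from 1 hippocampus of 1 wild-type rat pup. Iron-deficient (ID) pups came from dams kept on a purified diet with 3 to 6 ppm iron from gestational day 3 to postnatal day 7, and the other pups are labelled iron sufficient (IS). Insulin pups received intranasal insulin 2 times a day from postnatal day 8 to 21, and control pups did not. The groups are IS control (8 libraries), ID control (9), IS insulin (7) and ID insulin (8). Pups were killed on postnatal day 7 or 21, and the day of each library, its litter and its sex are not given in the labels. Since insulin began on day 8, day 7 can apply to control pups alone, and insulin and age cannot be told apart in any comparison of an insulin with a control group. The tests weigh differences against the pup-to-pup spread of these libraries and no more. The first number of a library's title is 71 for every IS control, 72 for every IS insulin and 73 for every ID insulin library, while ID control holds 69 (5 libraries) and 70 (4 libraries). The labels do not say what this number stands for, and its effect and that of the group cannot be told apart.

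As background, cholesterol of the brain is largely made within the brain, since lipoproteins of the blood hardly cross the blood-brain barrier. Demand is high in the weeks after birth, when oligodendrocytes build myelin. The pathway is regulated by the sterol regulatory element binding proteins (SREBPs): when sterols are scarce, SCAP escorts SREBP to the Golgi, where proteases release a fragment that switches on the synthesis genes, and INSIG proteins hold the complex back when sterols are ample. Insulin is a known inducer of SREBP-1 and its lipogenic targets in liver. Several steps of sterol synthesis and the desaturases use iron in their catalytic centres, among them CYP51, MSMO1, SC5D, SCD, FADS1 and FADS2.

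Total counts ran from 19619345 to 28062630 per library. Hippocampal markers were present in every library, with Prox1 of dentate granule cells at 61.8 to 134.7 CPM (counts scaled to the size of each library) and Wfs1 of CA1 neurons at 214.6 to 450.4 CPM. Of the other markers listed, Neurod6 ran from 147.8 to 250 CPM, Calb1 from 56.9 to 115.2 CPM and Zbtb20 from 6.68 to 43.7 CPM. ID insulin replicate 3 stood apart from its group: it had the highest summed level of 11 myelin and oligodendrocyte genes (20458 CPM, group median 12560) and the lowest of 5 neuronal genes (3509 CPM, group median 4724). ID insulin replicate 5 had the highest summed level of 5 thalamus markers (511.5 CPM, group median 157.3). Values without replicate 3, or without both libraries, are given for Hsd17b7, Sc5d, Cyp51, Srebf1, Srebf2, Scap, Fasn and Acaca.

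Most of the 32 genes held nearly the same level in the 4 groups. In edgeR's quasi-likelihood test with Benjamini-Hochberg adjustment over all tested genes, 1 gene, Fasn, was called (adjusted p under 0.05) between ID control and IS control, and it was lower. Between ID insulin and ID control, 2 genes were called, Hsd17b7 and Sc5d, both higher. DESeq2 called the same genes and, in the second comparison, also Fasn (higher), and limma voom called 3 (Fasn and Sc5d lower, Fads1 higher) and 4 (Hsd17b7, Sc5d, Fasn and Acly, all higher). For comparison, 45 genes (0.291%) of all tested were called in the first comparison, of which 18 (0.117%) were lower, and 589 (3.82%) in the second, of which 302 (1.96%) were higher. These 2 comparisons share the ID control libraries. In tissue RNA, fewer cells of a type and less RNA per cell cannot be told apart.

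No member was called in the other 4 tests by edgeR: IS insulin against IS control (19 genes of all tested called, 0.123%), ID insulin against IS insulin (378 genes, 2.45%), ID insulin against IS control (517 genes, 3.35%) and the diet by insulin interaction (145 genes, 0.939%). At an unadjusted p under 0.05 the members numbered 7, 2, 2 and 8 of 32 in these tests, and 16.3%, 20.1%, 20.3% and 17.1% of all tested genes did so. DESeq2 called 0, 0, 1 (Scap, lower) and 1 (Fasn) of the members, and limma voom with quality weights called 0, 0, 0 and 2 (Fasn and Acaca). Members between ID control and IS control at an unadjusted p under 0.05 numbered 7 of 32 (21.9%, against 11.9% of all tested genes), and between ID insulin and ID control 9 of 32 (28.1%, against 19.5%).

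**Figure D1:**
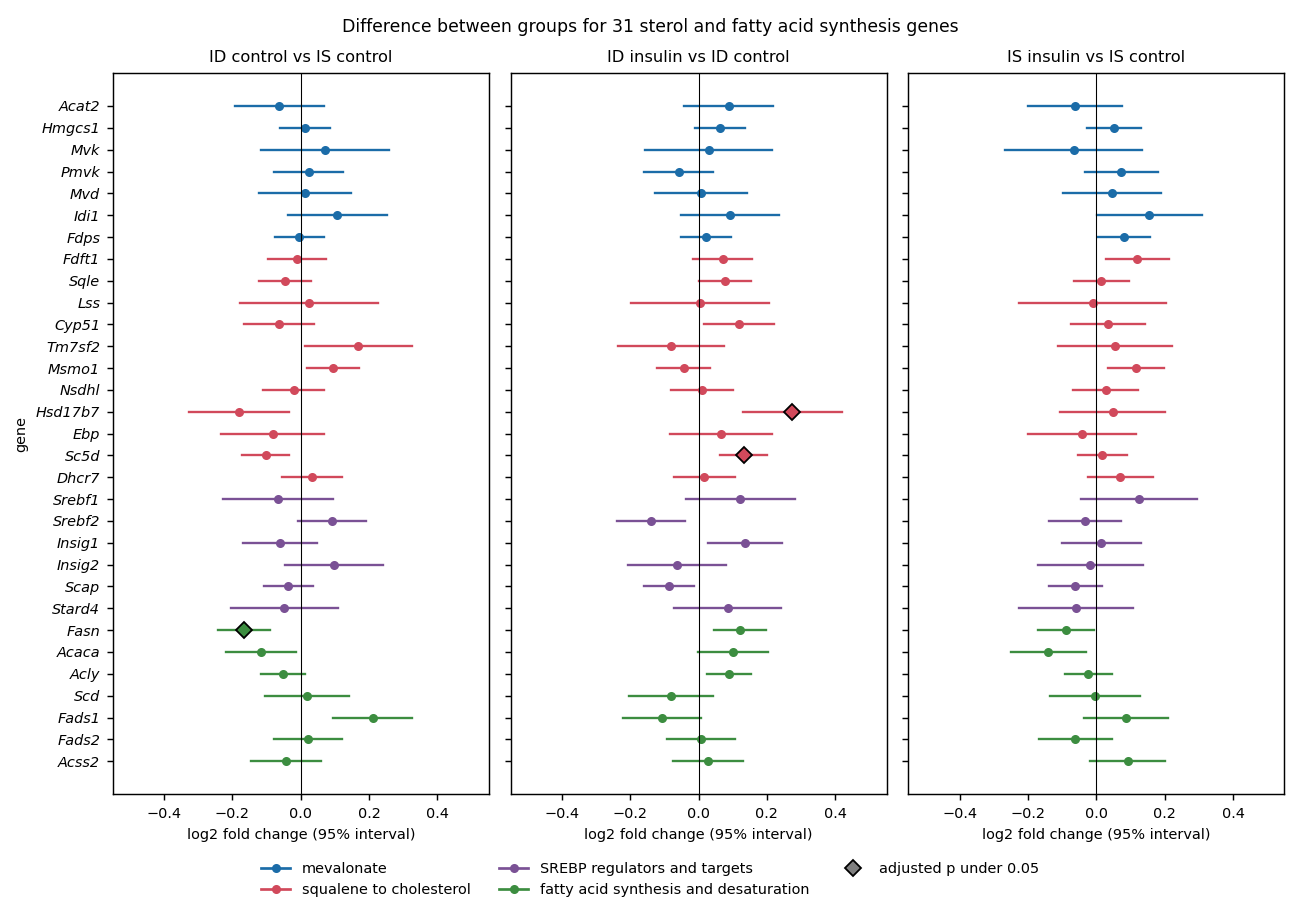
Difference between groups (log2 fold change with its 95% confidence interval) for 31 of the genes, coloured by role, in 3 comparisons that share control libraries. Elovl6 is left out because its intervals run past the axis. The called differences, drawn as diamonds, are Fasn (-0.17), Hsd17b7 (0.27) and Sc5d (0.13).

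The intervals give the size of difference that the data allow. The median log2 difference of the 32 genes was -0.02 between ID control and IS control, 0.05 between ID insulin and ID control and 0.02 between IS insulin and IS control, beside 0.01, 0.00 and 0.01 over all tested genes. Taken without sign, the median difference was 0.0613, 0.0802 and 0.0603 for the members and 0.0724, 0.0887 and 0.0924 for all tested genes. The 95% interval lay within 0.5 of 0 on the log2 scale for 31 of 32 members in each of the 6 tests, Elovl6 being the exception, and for 62.5% to 77.8% of all tested genes. Within 0.25 of 0 it lay for 26, 29 and 28 members in these 3 comparisons. Pups of 1 group also differed little: the median coefficient of variation of the members was 5.80% for IS control, 7.41% for ID control, 7.56% for IS insulin and 7.19% for ID insulin, beside 9.96%, 10.5%, 11.5% and 13.2% for all tested genes. The members were not set against genes of like expression level, so the part of level in these contrasts was not tested.

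The mevalonate genes build isoprenoid units from acetyl-CoA: Acat2 joins acetyl-CoA units, Hmgcs1 makes HMG-CoA, Mvk and Pmvk phosphorylate mevalonate, Mvd decarboxylates it, Idi1 isomerises the product and Fdps joins the units to farnesyl diphosphate. None of the 7 was called in any of the 6 tests by edgeR, and at an unadjusted p under 0.05 there were 0, 0, 2, 1, 1 and 0 of them, in the order ID control against IS control, ID insulin against ID control, IS insulin against IS control, ID insulin against IS insulin, ID insulin against IS control and interaction. DESeq2 and limma voom also called none of these 7. Median log2 differences of the list were 0.01, 0.03 and 0.05 in the first 3.

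Hmgcs1, the cytosolic HMG-CoA synthase and a classical SREBP target, lay at 663.6 to 730.1 CPM (median 690.1) for IS control pups, 672.8 to 728.6 (median 696.4) for ID control, 654 to 776 (median 733.8) for IS insulin, and 659.2 to 795.1 (median 730.6) for ID insulin. All 4 groups overlapped. The differences were 0.01 (95% interval -0.06 to 0.08) for ID control against IS control, 0.06 (-0.01 to 0.13) for ID insulin against ID control and 0.05 (-0.03 to 0.13) for IS insulin against IS control on the log2 scale, with adjusted p of 0.939, 0.345 and 0.53. Idi1 had mean levels of 71.1 CPM for IS control, 76.5 for ID control, 79.1 for IS insulin and 81.6 for ID insulin. Its ID insulin against IS control difference of 0.20 (interval 0.05 to 0.35) did not pass the test (adjusted p = 0.115). Wdr37 overlaps Idi1 in the RefSeq annotation, a pseudogene copy of Idi1 is listed there, and how reads of either were counted is not given in the sources used here.

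The 11 genes from squalene to cholesterol held both members that edgeR called higher, and these calls were between ID insulin and ID control. Fdft1 makes squalene, Sqle oxidises it and Lss closes the rings to lanosterol. Cyp51, Tm7sf2, Msmo1, Nsdhl and Hsd17b7 remove methyl groups and reduce the ring, and Ebp, Sc5d and Dhcr7 finish the sterol. In that comparison 9 of the 11 log2 differences were above 0 and the list's median was 0.07. Over all tested genes 7901 of 15439 were above 0 and the median was 0.00. Likewise 9 of 11 lay above 0 in IS insulin against IS control (median 0.03) and in ID insulin against IS control (0.05). In ID control against IS control 4 did so, in ID insulin against IS insulin 7 and in the interaction 6. As described further on, 8 of the 11 varied with Hmgcs1 among pups, so the 11 signs are not independent.

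Whether promoter elements have a part in the calls, or in how sterol genes varied among pups, was not tested. For description, the promoters of the genes called higher are shown with that of Hmgcs1. Both genes varied with Hmgcs1 among pups, as described further on, and 3 promoters are printed. Each is the 250 bases before the gene's start, 5′ to 3′ on the gene's strand, from RefSeq (assembly GRCr8), with capitals for matches to the CCAAT box (CCAAT or its complement ATTGG), the GC box (GGGCGG or CCGCCC) and the E-box (CACGTG).
Hmgcs1 (chr2:53382054-53382303, plus strand): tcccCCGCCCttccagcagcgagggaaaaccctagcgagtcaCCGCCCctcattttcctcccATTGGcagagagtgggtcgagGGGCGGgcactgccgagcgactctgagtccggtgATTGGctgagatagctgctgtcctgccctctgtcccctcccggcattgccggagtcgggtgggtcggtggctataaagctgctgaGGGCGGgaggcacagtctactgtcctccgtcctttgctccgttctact
Hsd17b7 (chr13:84722755-84723004, minus strand): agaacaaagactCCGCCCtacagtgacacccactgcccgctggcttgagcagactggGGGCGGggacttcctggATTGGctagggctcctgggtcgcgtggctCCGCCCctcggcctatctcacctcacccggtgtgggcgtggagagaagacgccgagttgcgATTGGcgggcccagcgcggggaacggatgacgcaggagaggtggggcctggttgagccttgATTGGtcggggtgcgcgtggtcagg
Sc5d (chr8:51538278-51538527, minus strand): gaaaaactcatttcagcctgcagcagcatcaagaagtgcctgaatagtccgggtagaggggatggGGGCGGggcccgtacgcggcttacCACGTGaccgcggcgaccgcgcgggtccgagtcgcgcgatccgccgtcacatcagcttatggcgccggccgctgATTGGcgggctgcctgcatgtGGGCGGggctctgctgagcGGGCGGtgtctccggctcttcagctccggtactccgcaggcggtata

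Of the 32 members, 25 have a promoter window in that table (26 windows of 300 bases, from 250 bases before to 50 after the start, Srebf1 having 2), and Pmvk, Fdft1, Sqle, Stard4, Fasn, Acaca and Elovl6 have none. A CCAAT box on either strand was found in 20 of 26 windows (76.9%), against 37.5% of all 33469 windows in the table. The GC box was found in 22 (84.6%, against 33.1%) and the E-box in 3 (11.5%, against 6.42%), those of Insig1, Sc5d and Scap. All members passed the filter on low counts, while the windows of the table were not limited to such genes. Whether the members' shares differ from those of other expressed genes was not tested. The sterol regulatory element letters TCACNCCAC were found in 0 of 26 windows and in 1.12% of all windows, which says only that these letters are not in these windows. Matches of different motifs may overlap, and a match is a run of letters and not a shown binding site.

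Hsd17b7 (ENSRNOG00000002826), a 3-ketosteroid reductase, lay at 18.7 to 26.3 CPM (median 23.5) for IS control pups, 19.3 to 22.3 (median 20.4) for ID control, 20.5 to 28.1 (median 24.1) for IS insulin, and 20.3 to 28.6 (median 26.1) for ID insulin. In ID insulin, 6 of 8 libraries lay above all 9 ID control libraries, and replicates 3 (21.2 CPM) and 8 (20.3 CPM) lay among them. The ID insulin against ID control difference was 0.27 on the log2 scale (SE 0.07, 95% interval 0.13 to 0.42, adjusted p = 0.0254). ID control lay below IS control by a log2 difference of -0.18 that did not pass the test (adjusted p = 0.292), and the ID insulin and IS control groups differed by 0.09 (adjusted p = 0.486).

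Sc5d (ENSRNOG00000008305), the sterol C5-desaturase with a di-iron centre, lay at 211.4 to 236.5 CPM (median 222.6) for IS control pups, 196.5 to 224.3 (median 207) for ID control, 208.6 to 245.4 (median 225.2) for IS insulin, and 214.1 to 240 (median 229.6) for ID insulin. In ID insulin, 4 of 8 libraries lay above all ID control libraries, and 7 of 9 ID control libraries lay below all IS control libraries. The log2 difference between ID insulin and ID control was 0.13 (SE 0.03, interval 0.06 to 0.20, adjusted p = 0.0226), and that between ID control and IS control was -0.10 (interval -0.17 to -0.04, adjusted p = 0.181).

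Other features of the libraries also differed between these 2 groups. Between ID insulin and ID control, 3 of 4 tested blood genes were called higher. The whole blood list summed to 1048.5 to 4603 CPM in ID insulin and 1059 to 2483 in ID control. Of 5 thalamus genes 1, Prkcd, was called higher, and the 5 together summed to 117.8 to 511.5 against 109.5 to 181.8 CPM. Of 5 tested meningeal genes 3 were called lower. The whole meningeal list summed to 163.6 to 245.8 against 211.9 to 420.2 CPM. Of 9 tested choroid plexus genes 0 were called. Of 6 oligodendrocyte precursor genes, 3 were called higher (Enpp6, Gpr17 and Vcan), and all 6 lay above 0 with a median log2 difference of 0.21. Their summed level was 639.8 to 882.6 CPM in ID insulin and 598.4 to 708.6 in ID control. Of 11 myelin and oligodendrocyte genes, 10 lay above 0 (median 0.17), with Ugt8 called higher and Mal lower, and sums of 11086 to 20458 against 9416.5 to 14743 CPM. Also lower were 2 of 5 tested endothelial and pericyte genes (Vtn and Cdh5), 1 of 5 hippocampal genes (Wfs1) and 1 of 5 microglial genes (Tmem119). The part of the precursor, endothelial, hippocampal and microglial genes in the 2 calls was not tested. In both groups 1 choroid plexus gene and 1 meningeal gene of the lists was at 0 in at least 1 library, and no blood or thalamus gene was. With the mean levels of the blood, thalamus, meningeal and choroid plexus lists as covariates, the differences were 0.24 for Hsd17b7 (adjusted p = 0.539) and 0.07 for Sc5d (adjusted p = 0.728). In that fit 9 of all tested genes were called in place of 589. With the myelin mean as the covariate instead, both genes were still called, among 528 of all tested genes. Without ID insulin replicates 3 and 5, Hsd17b7 was still called (log2 difference 0.28, adjusted p = 0.0362) and Sc5d was not (0.11, adjusted p = 0.0866). Against the ID control libraries titled 69 alone neither was called (Hsd17b7 0.28, adjusted p = 0.126, and Sc5d 0.09, adjusted p = 0.254), and against those titled 70 alone Sc5d was called (0.17, adjusted p = 0.0335) and Hsd17b7 was not (0.26, adjusted p = 0.178). Leaving out ID control replicate 8, or ID insulin replicate 2, 4 or 5, each ended 1 of the 2 calls.

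Among the other 9 genes of the list no call was made in any comparison by edgeR. Cyp51, lanosterol demethylase, had means of 333.6 CPM for IS control, 319.1 for ID control, 341.2 for IS insulin and 346.2 for ID insulin, with a log2 difference of 0.12 (interval 0.02 to 0.22) between ID insulin and ID control (adjusted p = 0.184), and 0.08 without ID insulin replicate 3 (adjusted p = 0.356). Msmo1, the C4-methylsterol oxidase, was at 159.8, 170.7, 173.2 and 165.6 CPM in the same order, and its interaction term of -0.16 had an adjusted p of 0.126. Tm7sf2, a sterol C14-reductase, reached 24.5 CPM in ID insulin replicate 3, above the other 7 libraries of its group (13.8 to 18.8 CPM).

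**Figure D2:**
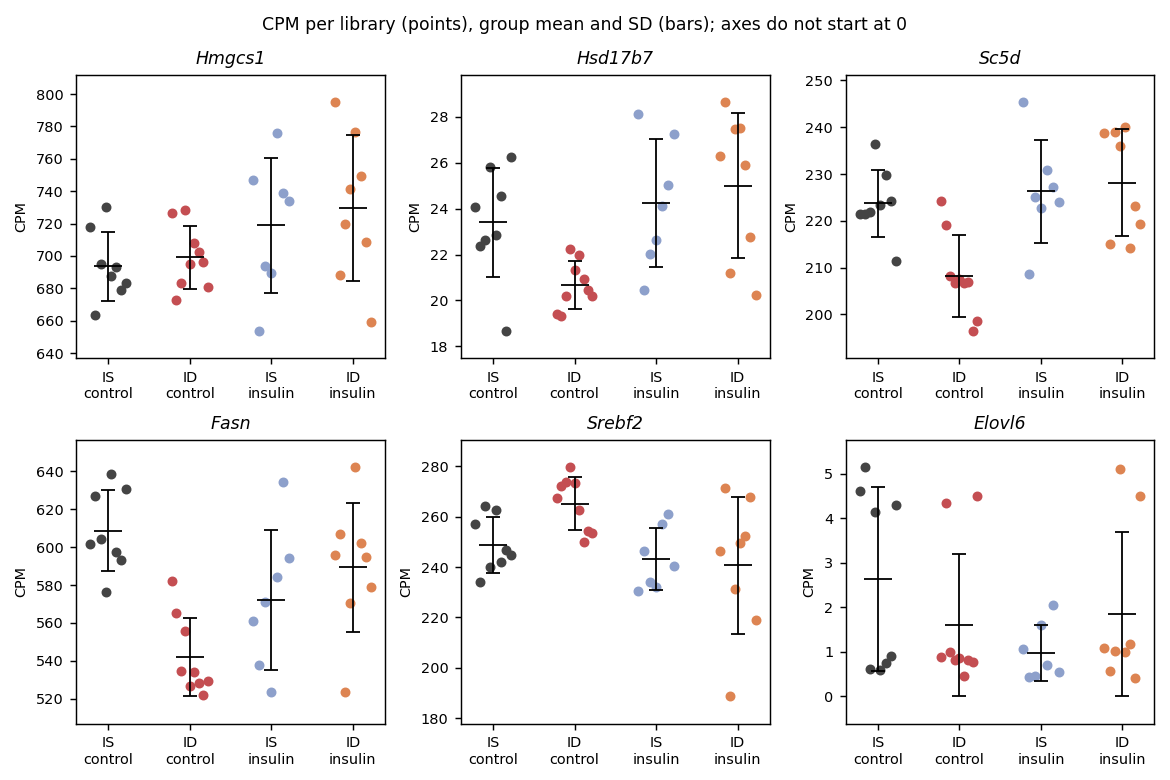
CPM of 6 genes in each library (points) by group, with group mean and SD (bars); each panel has its own axis, which does not start at 0. Fasn, Hsd17b7 and Sc5d are lowest on average in ID control, Srebf2 has 1 low library in ID insulin (188.7 CPM), and the 32 Elovl6 points fall at 2 levels.

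The next list holds 6 SREBP regulators and targets. Srebf1 and Srebf2 encode the SREBPs, Scap their escort, Insig1 and Insig2 the proteins that retain them, and Stard4 a sterol carrier that is an SREBP-2 target. In each of the 6 tests edgeR called 0 of these 6 genes, beside 0.123% to 3.82% of all tested genes. At an unadjusted p under 0.05 there were 0, 3, 0, 0, 1 and 0, in the order used above. These are 0%, 50%, 0%, 0%, 16.7% and 0% of the list, beside 11.9%, 19.5%, 16.3%, 20.1%, 20.3% and 17.1% of all tested genes. DESeq2 called Scap lower in ID insulin than in IS control. So did edgeR with DESeq2 size factors, or with the myelin mean as covariate. Srebf2 lay at 234 to 264.4 CPM (median 245.7) for IS control pups, 250 to 279.6 (median 267.5) for ID control, 230.6 to 261 (median 240.6) for IS insulin, and 188.7 to 271.2 (median 248.1) for ID insulin. Its lowest library was ID insulin replicate 3, and 5 of 9 ID control libraries lay above all IS control libraries. The log2 differences of 0.09 between ID control and IS control (interval -0.01 to 0.19, adjusted p = 0.461) and -0.14 between ID insulin and ID control (interval -0.24 to -0.04, adjusted p = 0.103) did not pass the test. The second was -0.10 without ID insulin replicate 3 (adjusted p = 0.174).

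Srebf1, the lipogenic SREBP gene, lay at 51.1 to 69 CPM (median 59.1) for IS control pups, 47.4 to 68.5 (median 54.6) for ID control, 56.1 to 73.7 (median 62.4) for IS insulin, and 51.1 to 82 (median 60.3) for ID insulin. The 4 groups overlapped, and the highest library was again ID insulin replicate 3. The log2 difference of Srebf1 with insulin was 0.12 in ID pups (interval -0.04 to 0.28, adjusted p = 0.405) and 0.125 in IS pups (interval -0.05 to 0.30, adjusted p = 0.473), and neither passed the test. Without ID insulin replicate 3 the difference of Srebf1 in ID pups was 0.05 (adjusted p = 0.725). Scap was at 148.7 CPM for IS control, 145 for ID control, 142.4 for IS insulin and 136.6 for ID insulin. The log2 difference of Scap between ID insulin and IS control was -0.12 (interval -0.20 to -0.05, adjusted p = 0.0585), with 5 of 8 ID insulin libraries below all IS control libraries. It was -0.09 without ID insulin replicate 3 (adjusted p = 0.112). Insig1 was at 101.3, 97.2, 102.4 and 106.9 CPM, with an ID insulin against ID control difference of 0.14 that did not pass the test (adjusted p = 0.145).

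In the fatty acid list, Acly makes cytosolic acetyl-CoA from citrate and Acss2 from acetate, Acaca makes malonyl-CoA, Fasn builds palmitate, Elovl6 lengthens it, Scd desaturates it, and Fads1 and Fads2 desaturate polyunsaturated fatty acids. Fasn was the member called between ID control and IS control. Fasn (ENSRNOG00000045636) lay at 576.3 to 638.6 CPM (median 602.9) for IS control pups, 522.1 to 582.2 (median 534) for ID control, 523.5 to 634.4 (median 570.9) for IS insulin, and 523.8 to 642.1 (median 595.2) for ID insulin. In ID control, 8 of 9 libraries lay below all 8 IS control libraries, and the exception was ID control replicate 1 at 582.2 CPM, above IS control replicate 4 at 576.3 CPM.

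The Fasn difference between ID control and IS control was -0.17 on the log2 scale (SE 0.04, interval -0.24 to -0.09, adjusted p = 0.0373), from a mean of 608.6 to one of 542 CPM. In the same direction but short of the threshold, IS insulin lay below IS control (log2 difference -0.09, adjusted p = 0.259). ID insulin lay above ID control by 0.12 (interval 0.04 to 0.20, adjusted p = 0.0604). The interaction, the insulin difference in ID pups minus that in IS pups, was 0.21 (interval 0.10 to 0.32, adjusted p = 0.052). ID insulin replicate 3 had the lowest Fasn of its group at 523.8 CPM. Without it Fasn was called in edgeR both between ID insulin and ID control (log2 difference 0.14, adjusted p = 0.0186) and in the interaction (0.23, adjusted p = 0.0143). Between the insulin groups Fasn differed by 0.04 with an interval of -0.04 to 0.12 (adjusted p = 0.585).

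Every ID control library lay below the IS control mean of Fasn in both title sets, at 527 to 582.2 CPM in the libraries titled 69 and 522.1 to 534 CPM in those titled 70. Taken alone, the sets gave log2 differences of -0.15 (adjusted p = 0.225) and -0.21 (adjusted p = 0.0645) from IS control, neither called. With the choroid plexus, meninges, blood and thalamus means as covariates the difference was -0.15 (adjusted p = 0.175), and with the myelin mean it was -0.17 (adjusted p = 0.0256). Summed choroid plexus markers ran from 16.2 to 3320 CPM in IS control and from 1194 to 5589 CPM in ID control, with 9 of 9 tested genes above 0 in log2 difference and none called. Leaving out 1 library at a time kept the call in 23 of 32 cases (adjusted p 0.0135 to 0.0837). It was lost without any 1 of ID control replicates 5 to 9 or of IS control replicates 1, 2, 5 and 8.

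Acaca, whose product feeds Fasn, had means of 107.6 CPM for IS control, 99.2 for ID control, 97.6 for IS insulin and 106.4 for ID insulin. Its differences were -0.12 between ID control and IS control (adjusted p = 0.331), -0.14 between IS insulin and IS control (adjusted p = 0.184) and 0.24 in the interaction (interval 0.09 to 0.39, adjusted p = 0.0861). Without ID insulin replicate 3, the lowest of its group for Acaca, the interaction was 0.26 and was called in edgeR (adjusted p = 0.0324). Of the 8 fatty acid genes, 5 (62.5%) had an unadjusted p under 0.05 in the interaction, beside 17.1% of all tested genes. With all libraries edgeR called none of them. The interaction was above 0 for Fasn, Acaca, Acly (0.11) and Elovl6 (1.70, a gene with few counts). Fads1 went the other way, with an insulin difference of -0.11 in ID pups and 0.09 in IS pups. Fads1, the delta-5 desaturase, was at 219 CPM for IS control, 253.4 for ID control, 232.5 for IS insulin and 235.2 for ID insulin, and its log2 difference of 0.21 between ID control and IS control did not pass the test (interval 0.10 to 0.32, adjusted p = 0.104). Scd, a stearoyl-CoA desaturase, was at 62.2, 63.1, 62.1 and 59.7 CPM in the same order of groups. Scd2, another stearoyl-CoA desaturase gene, is not a member.

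Elovl6 was unlike every other member in its spread. It lay at 4.13 to 5.14 CPM (90 to 134 counts) in 8 libraries and at 0.41 to 2.05 CPM (10 to 57 counts) in the other 24. The high libraries were 4 of 8 in IS control (replicates 1, 2, 4 and 8), 2 of 9 in ID control (2 and 9), 0 of 7 in IS insulin and 2 of 8 in ID insulin (4 and 8). The level of 3 CPM that parts these ranges was chosen after the values were seen. The log2 difference between IS insulin and IS control was -1.40 with an interval of -2.64 to -0.16 (adjusted p = 0.242), which did not pass the test. The coefficient of variation of Elovl6 was 78.7% in IS control, while the highest of the other 31 genes there was 14.8% (Mvk).

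**Figure D3:**
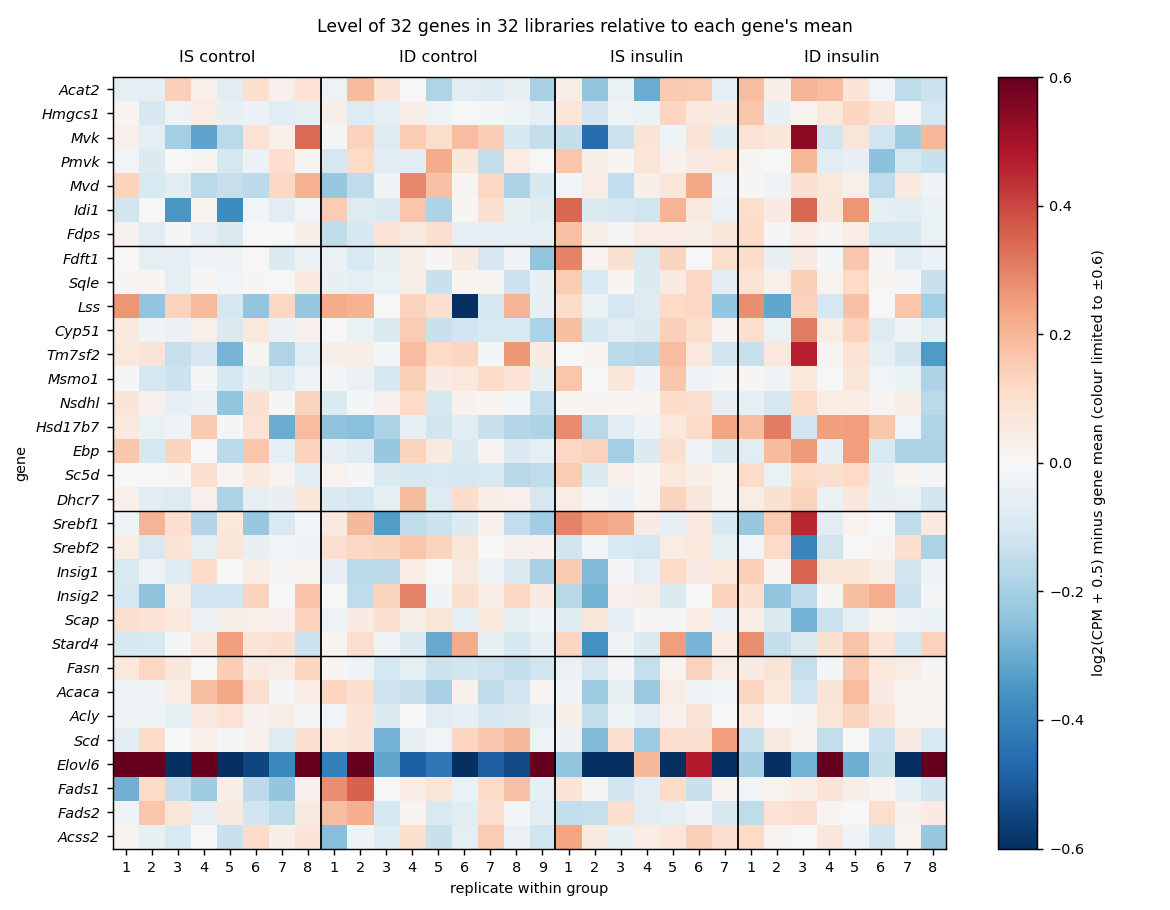
Each of the 32 libraries (columns, by group) against each gene (lines, by role), coloured by log2(CPM + 0.5) minus the gene's mean over all libraries, with the colour scale capped. Colours vary from pup to pup within every group, and ID insulin replicate 3 is high in many sterol genes and low in Srebf2 and Scap.

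The members were not independent of each other from pup to pup. After removing each group's mean from log2 CPM (prior count 2), the residuals of each of the other 31 genes were correlated with those of Hmgcs1 over the 32 libraries. Permutation tests (100000 resamples within groups, two-sided) were adjusted by Benjamini-Hochberg over the 31 pairs. In all, 14 of 31 genes passed, each with a positive r. They were 8 of 11 genes from squalene to cholesterol (list median r 0.57), Acat2 and Idi1 among 6 mevalonate genes (median 0.19), Insig1 and Stard4 among 6 regulators and targets (median 0.30), and Acaca and Acly among 8 fatty acid genes (median 0.25). An r above 0.4 was found for 15 of 31 members (48.4%) and for 3.06% of all tested genes, whose median r was -0.00.

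Msmo1 followed Hmgcs1 most closely, with r = 0.62 and Spearman's rho = 0.62 (adjusted permutation p = 0.0155). Its r was 0.53 without ID insulin replicate 8 and IS insulin replicate 2, the libraries farthest from the Hmgcs1 median. Insig1 had r = 0.59 (rho 0.66), Fdft1 0.59 (rho 0.67), Cyp51 0.59 (rho 0.67), Hsd17b7 0.58 (rho 0.59) and Sc5d 0.57 (rho 0.54), each with an adjusted permutation p of 0.0155. Without those 2 libraries r was 0.47, 0.60, 0.52, 0.42 and 0.48 in that order, so each kept a positive r. Both genes called higher in ID insulin than in ID control were thus among those that varied with Hmgcs1 within groups.

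Among the genes that did not pass, Srebf2 had r = 0.19 (adjusted permutation p = 0.561), and Srebf1 had r = -0.34 (adjusted permutation p = 0.16). Fasn had r = 0.31 (adjusted permutation p = 0.252) and Fads2 had -0.21 (adjusted permutation p = 0.33). Tm7sf2, Nsdhl and Ebp were the 3 genes from squalene to cholesterol that did not pass, with r of 0.26, 0.28 and 0.26. With the mean of each first title number removed in place of the group mean, 14 genes passed, and without ID insulin replicates 3 and 5 there were 12.

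**Figure D4:**
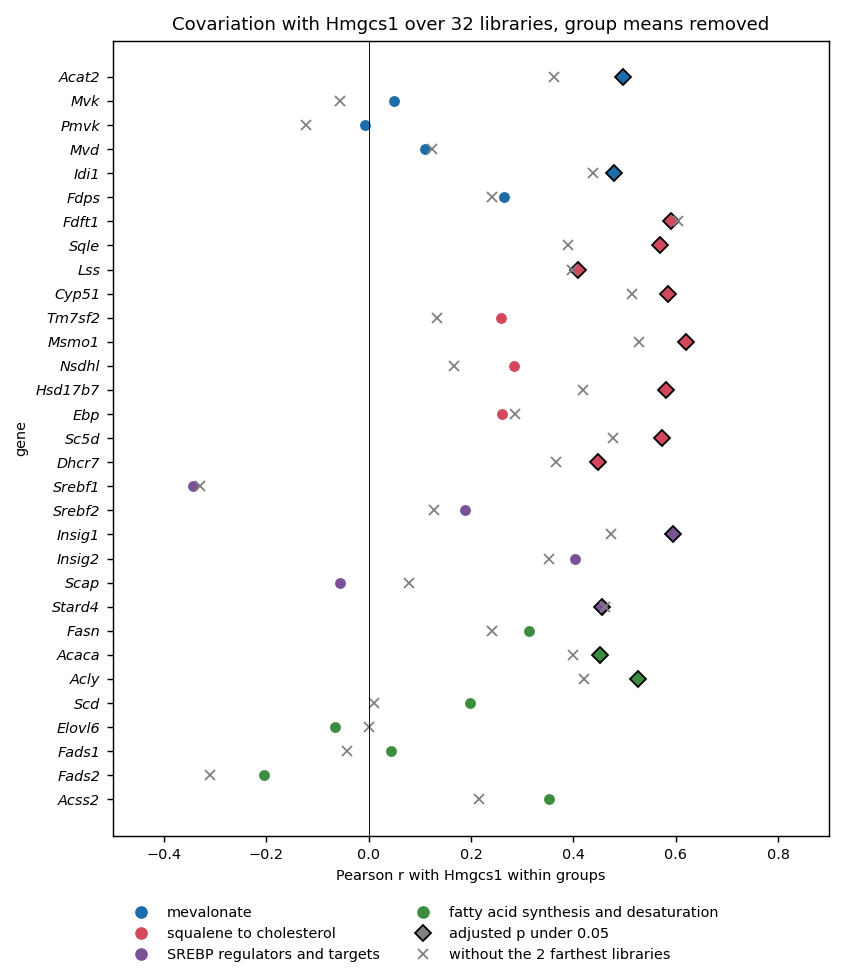
Pearson r of each gene's residual log2 CPM with that of Hmgcs1 over 32 libraries, coloured by role; diamonds passed the permutation test after adjustment, and crosses give r without the 2 libraries farthest from the Hmgcs1 median. The 11 genes from squalene to cholesterol lie between 0.26 and 0.62, while Srebf1 lies at -0.34.

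The 11 myelin and oligodendrocyte markers summed to 10805 to 15159 CPM for IS control, 9416 to 14743 for ID control, 12150 to 16437 for IS insulin and 11086 to 20458 for ID insulin, and none was at 0 in any library. Their part in how the sterol genes varied between pups was not tested.

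Single libraries led several of the 32 members at once. Such counts were not made over all tested genes, so they are not shown to be particular to these members. In ID insulin, replicate 3 held the top value for 13 of 32 members, among them Cyp51, Sqle, Idi1, Mvk and Srebf1, and the lowest value for Srebf2, Scap, Fasn and Acaca. In IS insulin, replicate 1 held the top value for 12 members, and in ID control replicate 4 did so for 12. Each of these 3 libraries also had the highest summed myelin markers of its group (20458, 16437 and 14743 CPM). IS control did not show this: the library with the top myelin sum there, replicate 1 (15159 CPM), led 1 of 32 members, while replicate 8 led 9.

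Other genes of the pathway were counted in the same way. Of all tested genes, 3.82% were called in ID insulin against ID control and 3.35% in ID insulin against IS control. Of 10 genes of sterol branches and SREBP processing, 8 were tested, and edgeR called 0 of 8 in each of the 6 tests, with 2, 3, 0, 1, 1 and 2 at an unadjusted p under 0.05. Of 14 genes of sterol transport and turnover, 1 was called, in ID insulin against ID control: Ch25h, cholesterol 25-hydroxylase, was lower, at 1.35 ± 0.478 CPM (SD, n = 8) against 2.30 ± 0.590 (SD, n = 9). Its log2 difference was -0.73 (adjusted p = 0.0447). Of 21 genes of fatty acid elongation, activation and supply, 20 were tested. In ID insulin against ID control 1 of 20 was called, and in ID insulin against IS control 1 of 20. Acsl3, a long-chain acyl-CoA synthetase, was higher in ID insulin than in ID control (329.9 ± 27.1 CPM, SD, n = 8, against 291.5 ± 9.11, SD, n = 9). Its log2 difference was 0.18 (adjusted p = 0.0444). Hsd17b12, a ketoacyl-CoA reductase of elongation, was higher in ID insulin than in IS control (95.9 ± 6.76 CPM, SD, n = 8, against 86.4 ± 4.52, SD, n = 8). Its log2 difference was 0.15 (adjusted p = 0.0476).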

How the data were processed

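RNA-seq reads of 32 hippocampus libraries were trimmed and mapped by the authors, and reads per gene were deposited as raw counts. Trimmomatic 0.40, FastQC, HISAT2 2.1.0, featureCounts and edgeR are named in the submitters' processing notes, with the builds Rnor_6.0 and mm10 and no role for either. The strand setting and the treatment of reads with several matches are not given in the sources used here, so no coordinates are given for the counts, and Idi1, Srebf1, Acaca, Acat2, Hmgcs1, Fdft1, Insig1 and Fads2, which overlap another annotated gene in RefSeq GRCr8, and Fdps, Cyp51 and Nsdhl, which have a pseudogene copy by name, may share reads. Libraries held 19619345 to 28062630 counts in total, and intervals come from the spread between pups.

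From the counts, filterByExpr (edgeR 4.0.16, R 4.3.3) kept 15439 of 32883 genes. TMM factors and a quasi-likelihood F-test with 1 coefficient for each of the 4 groups (28 residual degrees of freedom, two-sided, Benjamini-Hochberg over all tested genes, adjusted p under 0.05) gave 6 tests. CPM values use TMM-scaled library sizes. No 2 libraries of the same group agreed within sampling noise (lowest chi-square per gene 5.773), and pairs from different groups were not compared. DESeq2 1.42.0 and limma 3.58.1 were alternatives. The test and the correlation were tested on simulated data. 1 planned item of the correlations and marker lists is not reported here, so correlations were adjusted over the 31 pairs reported. The members and lists were chosen with earlier results of these data known. All 32 members are reported by role, with full values for those called and for Hmgcs1, Srebf1, Srebf2 and Fasn, and up to 4 called genes of the other lists are named by adjusted p. Promoters come from RefSeq GRCr8.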

Additional observations from a re-analysis of the deposited data

Results flagged for a closer look

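In 6 of 128 tests of a gene within a group, the highest or lowest library lay farther from the rest than Dixon's 95% limit allows (chance gives about 1 in 20). Pmvk in IS insulin replicate 1 was at 43.2 CPM, with the next library at 40.6 CPM. Fdps in the same library was at 231 CPM, with the next at 216 CPM. Lss in ID control replicate 6 was at 31.9 CPM, below the next at 48.1 CPM. Tm7sf2 in ID insulin replicate 3 was at 24.5 CPM, with the next at 18.8 CPM. Msmo1 in ID insulin replicate 8 was at 147 CPM, below the next at 163 CPM, and Fads2 in ID insulin replicate 1 was at 96 CPM, below the next at 106 CPM. None of these 6 genes was called in any of the 6 tests by edgeR.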

How the results depend on the processing

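Counts of members called were recomputed under 14 other settings (13 for the interaction, since a fit of the compared groups alone is not defined for it) and with each of the 32 libraries left out in turn. ID control against IS control (1 member called) gave 3 with limma voom and 0 with the second title number as a replicate block, with ID control of title number 69 or 70 alone, and with the choroid plexus, meninges, blood and thalamus means as covariates, and 0 to 1 with a library left out. ID insulin against ID control (2 called) gave 4 with limma voom, 3 with DESeq2, 1 with the compared groups alone, with title number 70 alone and without ID insulin replicates 3 and 5, 0 with title number 69 alone and with the tissue covariates, and 1 to 3 with a library left out. ID insulin against IS control (0 called) gave 1 (Scap) with DESeq2, with DESeq2 size factors in edgeR and with the myelin mean as covariate, and 0 to 1 with a library left out. The interaction (0 called) gave 1 with DESeq2, with a filter of 1 CPM in 7 libraries, without ID insulin replicates 3 and 5 and with the myelin covariate, 2 with limma voom, and 0 to 2 with a library left out. IS insulin against IS control and ID insulin against IS insulin gave 0 in all of these. The log2 differences of Fasn (-0.21 to -0.14), Hsd17b7 (0.24 to 0.30) and Sc5d (0.07 to 0.17) kept their sign in all 14 settings. The cause of the changes was not tested, and fewer libraries enter where some are left out.

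The second title numbers did not pair the libraries: over 40 same-numbered pairs the correlation of deviations ran from -0.195 to 0.25 (median 0.00336), and 2 of 30 libraries correlated best with a library of their own number. With this number as a replicate block, the genes called among all tested were 33 in place of 45 for ID control against IS control (Fasn lost its call), 703 in place of 589 for ID insulin against ID control (2 members, as without the block), 0 in place of 19 for IS insulin against IS control, 177 in place of 378 for the 2 insulin groups, 380 in place of 517 for ID insulin against IS control, and 9 in place of 145 for the interaction. The count of genes correlated with Hmgcs1 moved from 14 to 12 without ID insulin replicates 3 and 5, and stayed at 14 with a prior count of 0.5. The earlier quasi-likelihood method of edgeR and the removal of title number means were chosen after seeing the data. Elovl6 had 10 to 134 counts per library.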
